A study of Homo sapiens with 9 samples.

Results

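Distal 10q is taken here as the stretch of chromosome 10 from 60 Mb to the end of the long arm, and its members are the listed genes whose transcription start site (TSS) lies in it. The rule used position only, and it took 236 of the 9588 genes in the deposited list, or 2.46%. The other 175 listed genes of chromosome 10 are called proximal chromosome 10, and the 8643 genes of the 21 other autosomes are the wider comparison. The series is H2BK120Ub ChIP-seq of RPE1-hTERT, a telomerase-immortalised human cell line that came from retinal pigment epithelium. All 9 libraries share the genotype RPE1 iCas9 p53/puro-dKO, which carries inducible Cas9 and lacks p53 and the puromycin resistance gene. Of these, 2 were mock-treated, 2 were taken 3 h and 4 were taken 24 h after a UV-C dose of 9 J/m2, and the remaining 1 is the input of a mock sample. The table holds no ChIP-seq value of any library. For each gene it gives the length and 1 BrU-seq value, the read density of newly made RNA over its first 3 kb in unirradiated WT cells, and this density is the measure used below. The BrU-seq reads came from an earlier experiment and not from the 9 ChIP-seq libraries.

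RPE1 cells are known to carry an additional copy of distal 10q, joined to the long arm of an X chromosome. A cell that holds more copies of a chromosome segment can make more RNA from its genes, because each copy is a template of its own, although single genes can depart from this through their own regulation. In BrU-seq, RNA made during a short pulse of bromouridine is captured and sequenced, so the reads near a gene's start reflect how much RNA polymerase II is at work there and not how stable the RNA is. Copy number was not measured in the table analysed here, and its part in the values below was not tested. Each gene has 1 value for the condition, so the values have no error between libraries, and genes are not replicates of a condition, so no p-value over genes is given. Differences were instead set beside the spread of the same quantity over the 21 other autosomes.

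The labelled cell type was checked against its markers. Of 15 markers of retinal pigment epithelium, 7 were in the list and 1 of these, OTX2, a transcription factor that specifies this tissue, had a density above 15, at 217. MITF, a regulator of pigment cell genes, was at 13.3, RPE65, LRAT and RLBP1 of the visual cycle were between 0.26 and 1.26, and TTR and RGR were listed at 0. The photoreceptor markers CRX and RCVRN were listed at 0.

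The sequence just before the start is shown for 5 members that span the range of the measure. They are the member with the highest density, the member of at least 100 kb with the highest density, the members next to a density of 15 on each side, and the longest member listed at 0. Each run is the 250 bases before the listed TSS, read 5′ to 3′ on the gene's strand from an hg38 copy of the genome. Capitals mark a CCAAT box, a match to TATAAA, the GC box GGGCGG or the ETS core CCGGAA, each also in reverse complement. RPS24 (plus strand, chr10:78033613-78033862), MYOF (minus strand, chr10:93482335-93482584), CHST15 (minus strand, chr10:124093599-124093848), ABLIM1 (minus strand, chr10:114658276-114658525) and the lncRNA gene ENSG00000228566 (plus strand, chr10:63872320-63872569) had densities of 2896, 566, 15.6, 14.5 and 0.
RPS24: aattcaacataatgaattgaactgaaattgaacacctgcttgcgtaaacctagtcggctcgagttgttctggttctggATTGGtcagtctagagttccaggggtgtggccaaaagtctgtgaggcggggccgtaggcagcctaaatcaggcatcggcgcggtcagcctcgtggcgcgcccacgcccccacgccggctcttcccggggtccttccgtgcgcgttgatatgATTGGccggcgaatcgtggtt
MYOF: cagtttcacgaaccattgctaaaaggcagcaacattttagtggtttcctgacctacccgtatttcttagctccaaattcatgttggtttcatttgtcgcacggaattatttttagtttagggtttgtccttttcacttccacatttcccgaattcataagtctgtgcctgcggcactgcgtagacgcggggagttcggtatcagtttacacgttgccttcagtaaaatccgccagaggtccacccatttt
CHST15: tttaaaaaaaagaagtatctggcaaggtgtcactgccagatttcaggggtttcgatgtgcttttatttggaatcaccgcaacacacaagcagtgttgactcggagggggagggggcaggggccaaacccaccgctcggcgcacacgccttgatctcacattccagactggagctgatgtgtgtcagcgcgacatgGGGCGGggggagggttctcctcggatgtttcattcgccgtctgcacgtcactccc
ABLIM1: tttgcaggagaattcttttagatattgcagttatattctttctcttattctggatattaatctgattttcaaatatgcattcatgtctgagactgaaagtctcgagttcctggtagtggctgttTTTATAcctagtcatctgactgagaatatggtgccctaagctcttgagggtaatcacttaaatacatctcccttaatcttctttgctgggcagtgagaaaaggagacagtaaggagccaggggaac
ENSG00000228566: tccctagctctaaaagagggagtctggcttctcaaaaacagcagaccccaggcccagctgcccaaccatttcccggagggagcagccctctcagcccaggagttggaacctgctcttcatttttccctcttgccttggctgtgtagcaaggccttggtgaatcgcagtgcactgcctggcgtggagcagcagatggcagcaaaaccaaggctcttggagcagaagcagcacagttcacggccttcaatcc
RPS24 holds the CCAAT box in reverse, CHST15 holds GGGCGG and ABLIM1 holds TATAAA in reverse, while MYOF and ENSG00000228566 hold none of these letters in this stretch. In the 300 bases from 250 before to 50 after the start, there were 22 CpG dinucleotides in RPS24, 12 in MYOF, 18 in CHST15, 2 in ABLIM1 and 4 in ENSG00000228566.

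A density of 15 marks transcribed genes below, since it is the level of the lowest of the 3000 genes that the authors' methods rank as active. At this level 103 of the 236 distal 10q genes were transcribed, or 43.6%, where the background over all listed genes with a value was 31.6%. The share was 26.9% in proximal chromosome 10 (47 of 175 genes) and 31.6% in the other autosomes (2724 of 8628). Another 56 members had a density above 0 and under 15, and 77 were listed at 0, or 32.6% of the members against 41.0% in the other autosomes. A density above 0 was thus listed for 67.4% of the members, with a background of 58.7% over all listed genes and 59.0% in the other autosomes. Densities of at least 100 were listed for 51 members, or 21.6%, against 9.06% of the genes of the other autosomes and 5.14% of proximal chromosome 10. All 236 members had a value.

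Transcribed genes of distal 10q also had higher densities than transcribed genes elsewhere. Their median was 99.1, with quartiles of 51.7 and 157, where the median was 52.1 in proximal chromosome 10 and 64.7 in the other autosomes. Once the transcribed genes of the other autosomes were weighted to the lengths of the transcribed members, their median was 65.3. The ratio was then 1.52-fold (0.60 on the log2 scale). Against proximal chromosome 10, weighted in the same way, the ratio was 1.87-fold (0.91 on the log2 scale). Proximal chromosome 10 itself lay under the length-matched autosomes, with a log2 ratio of -0.32. Among transcribed genes, the member at the 25th percentile was 1.40-fold above its counterpart in the other autosomes, at the 75th percentile 1.43-fold and at the 90th 1.26-fold, but at the 10th percentile both sets were close, at 22.7 and 23.6. Against proximal chromosome 10 the ratios were 1.60-fold at the 25th and 1.67-fold at the 75th percentile, but 1.02-fold at the 10th and 1.08-fold at the 90th. Genes entered all of these sets only from the same minimum density upwards, which holds the lowest percentiles near that minimum. The 10th percentile therefore cannot show whether genes of low density differ between the sets.

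**Figure D1:**
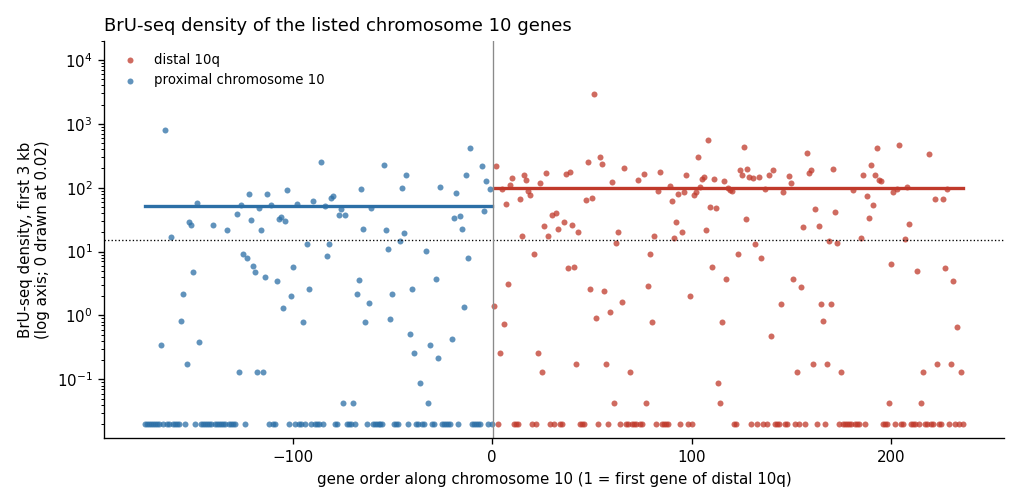
BrU-seq density in the first 3 kb of each listed gene of chromosome 10 (log axis, genes listed at 0 drawn at 0.02) in their order along the chromosome, with distal 10q in red and proximal chromosome 10 in blue. The dotted line is a density of 15, and the thick lines are the medians of the genes at or above it, 99.1 and 52.1.

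The spread over chromosomes gives these differences their scale. Against length-matched genes, the share of transcribed genes was 11.9 percentage points higher in distal 10q, while the same quantity for the 21 other autosomes, each set against the rest, ran from -10.3 points for chromosome 18 to 7.52 points for chromosome 19 (SD 5.30, n = 21). The log2 ratio of median density, 0.60 for distal 10q, ran from -0.65 for chromosome 19 to 0.27 for chromosome 20 (SD 0.22, n = 21). On both measures, none of the 21 autosomes was higher than distal 10q. Whole autosomes differ in size from this segment, so segments of the same length, 73.6 Mb, were also cut from the other autosomes. Counted from the first base of each chromosome, 26 whole segments were obtained. The remainder at the end of each chromosome, and all of chromosomes 19, 20, 21 and 22, lay outside them. In the 26 segments the shares of transcribed genes ran from 21.5% to 41.4% and the medians from 52.7 to 86.1. On either measure, 0 of the 26 were above distal 10q.

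Gene class moved with the share. Protein-coding genes made up 71.2% of the members, 52.6% of proximal chromosome 10 and 62.3% of the other autosomes. Among protein-coding genes, 94 of 168 members were transcribed, or 56.0%, with a background of 45.7% over all listed coding genes, against 46.5% in the other autosomes and 47.9% after length matching. The difference of 8.08 points was exceeded by chromosome 15, at 9.25 points, and chromosome 5, at 11.6 points, so the share of transcribed coding genes lay inside the range of the autosomes. The level did not: transcribed coding members had a median of 108 against 67.7 in length-matched coding genes, a ratio of 1.60-fold (0.68 on the log2 scale), where chromosome 12, the highest of the 21, was at 0.24.

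Length entered differently for the share and for the level. The members had a median length of 24098 bp, and those transcribed of 30527 bp. Between 20 and 50 kb, 39 of 62 members were transcribed, or 62.9%, against 38.9% in the other autosomes. Between 50 and 100 kb and between 100 and 200 kb the shares were 59.5% and 57.9%, against 39.5% and 38.2%. Under 5 kb the shares were close, at 19.4% and 18.4%, from 5 to 10 kb they were 33.3% and 22.2%, and from 10 to 20 kb they were 28.2% and 29.5%. Of the 12 members of at least 200 kb, only ZMIZ1 and ATRNL1 were transcribed, or 16.7%, against 30.4% of the 326 such genes in the other autosomes. The median density of transcribed members was higher than that of the other autosomes in 6 of the 7 length classes. Among these 6, the class of at least 200 kb rested on 2 transcribed members and that under 5 kb on 6. The exception was 5 to 10 kb, with 12 transcribed members, at 39.3 against 67.6.

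Along the chromosome the level did not change in a single step at 60 Mb. In windows of 10 Mb, the median density of transcribed genes on the proximal side was 27.8 in the first window and 38.1 in the second. It was then 59.4, from 4 transcribed genes, and 46.8, and 72.7 and 94.8 in the 2 windows before the border. Inside distal 10q it was 94.2 from 60 to 70 Mb, 68.6 from 70 to 80 Mb and 84.6 from 80 to 90 Mb, and then 137, 117 and 128 in the 3 windows from 90 to 120 Mb. The window from 120 to 130 Mb was at 94.8 with 7 transcribed genes, and the last held 3, with a median of 67.7. With 10 transcribed genes taken on each side of the border, the median was 89.3 outside and 103 inside, with 20 it was 89.3 and 83.6, and with 30 it was 66.1 and 91.6. The 7 windows of distal 10q with at least 7 transcribed genes, a minimum chosen after the values were seen, were all above 67.9, the median over 179 such windows of the other autosomes, and 6 of them were above 83.8, their upper quartile. Of 4 such windows in proximal chromosome 10, 2 were above that median. The share of transcribed members ran from 20.0% in the last window to 62.2% between 90 and 100 Mb.

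The genes beside the border were of mixed level. Just outside lie CCDC6, at 94.8, and the lncRNA genes ENSG00000235140 and LINC01553, both listed at 0. The first members inside are the lncRNA gene ANK3-DT, at 1.39, then CDK1, the kinase that drives entry into mitosis, at 217, and LINC00845, listed at 0. CDK1 lies on the plus strand from 60778478 to 60794852 (GRCh38) and has 8 exons in its canonical transcript. Next to the level of 15, CHST15, a chondroitin sulphate sulphotransferase, was at 15.6, ENSG00000232110 at 16.2 and LINC00867 at 16.4, and on the other side ABLIM1, an actin-binding LIM protein, was at 14.5 and PLAC9 and the receptor gene GFRA1 were both at 13.5.

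The 20 members with the most nascent RNA had densities of at least 176. RPS24, which encodes a protein of the small ribosomal subunit, had a density of 2896 and ranked 4 in the whole list. It spans 6835 bp on the plus strand from 78033863 to 78040697, and 10.6% of its first 3 kb is exon in the canonical transcript, so most of the measured stretch is intron. MYOF, a ferlin that acts in membrane repair and fusion, was next at 566, although it is 175906 bp long (minus strand, 93306429 to 93482334, 54 exons). BUB3 of the spindle checkpoint was at 463, the glycolytic enzyme gene PGAM1 at 431 and BAG3, a co-chaperone of HSP70, at 424. These 5 members were among the 100 highest genes of the list, and 16 members were among the 300 highest, or 5.33% of them, where members make up 2.46% of the list. All of the 20 highest members were protein-coding, and the lowest of them was DNAJB12.

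The members were grouped by known function into 9 lists that together hold 122 of them. All 122 are protein-coding, and 64 of them were transcribed, with a median of 21.3. The 46 coding members in no list had a higher median, 52.4, with 30 transcribed. The median was 3.75 over all 236 members and 0.347 over the 9501 listed genes with a value, but these sets include noncoding genes. The share transcribed was 56.0% over all coding members and 45.7% over all listed coding genes. The counts for actin, adhesion and matrix, 7 of 14, and for signalling, 14 of 23, lay near the share of all coding members. The lists for the cell cycle, mitochondria, RNA and membrane traffic held mostly transcribed members, and those for neurons, tissue enzymes and developmental factors mostly genes at or near 0. Lists were made by function for genes of this arm, so their counts describe the arm and are not compared with other chromosomes. They were drawn up with earlier results of these data known, so the split between them is a description and not a test.

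Of 13 members in the list for the cell cycle, replication and DNA repair, 12 were transcribed, with a median of 145. The list also held POLR3A, a subunit of RNA polymerase III, at 68.6, and BTAF1, a regulator of the TATA-binding protein, at 104, and without these transcription genes 10 of 11 were transcribed, with a median of 155. Besides CDK1 and BUB3, the proliferation marker MKI67, whose protein coats mitotic chromosomes, was at 334. SMC3, a core cohesin subunit, was at 186. The mitotic kinesins KIF20B and KIF11 were at 155 and 145, and STN1, part of the complex that protects telomere ends, was at 155. MCMBP, a binding partner of the MCM helicase, was at 129.8. The exception was SYCE1, which builds the synaptonemal complex of meiosis and was listed at 0.

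Mitochondrial and metabolic genes were transcribed in 15 of 16 members, with a median of 88.6. VDAC2, a channel of the outer mitochondrial membrane, was at 256, PPIF, the matrix cyclophilin of the permeability transition pore, at 236 and PRDX3, a mitochondrial peroxidase, at 230.4. ALDH18A1 of proline synthesis and OAT of ornithine breakdown were at 99.1 and 104. Lower values were listed for LHPP, at 26.8, and PCBD1, at 22.8. The one member under 15 was MAT1A, the liver form of methionine adenosyltransferase, at 1.65.

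All 6 members of the list for RNA and protein synthesis and all 8 of the list for membrane traffic were transcribed. The lowest of the 6 was GLRX3, a glutaredoxin gene, at 67.7. The splicing factor gene SMNDC1 was at 345, the nucleolar helicase gene DDX21 at 157, the RNA-binding protein gene TIAL1 at 158 and NOC3L, a ribosome assembly factor, at 137. In membrane traffic, TM9SF3 was at 190.4, ZFYVE27, which acts in neurite and endosome traffic, at 147, SEC23IP of the early secretory pathway at 127 and the retromer subunit gene VPS26A at 89.1. The medians of the 2 lists were 157 and 129.5.

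Of 14 members for actin, adhesion and matrix, 7 were transcribed, with a median of 15.1. After MYOF came MARVELD1 at 196, CHST3, which sulphates chondroitin, at 166, the actin-linked PDZ and LIM protein gene PDLIM1 at 129 and the secreted protease gene HTRA1 at 86.9. SPOCK2, a matrix proteoglycan, was at 5.50, the muscle Z-disc gene LDB3 at 2.95, and the matrix protease gene MMP21 was listed at 0.

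Growth, death and inflammatory signalling held 23 members, of which 14 were transcribed and 6 were listed at 0, with a median of 28.6. The coregulator gene ZMIZ1 was at 303 over a length of 247554 bp, EIF4EBP2, an inhibitor of translation initiation, at 172, the ERK phosphatase gene DUSP5 at 172 and HIF1AN, the asparagine hydroxylase that restrains HIF, at 156. The deacetylase gene SIRT1 was at 67.4 and TET1, which oxidises methylcytosine, at 17.6. The growth factor receptor gene FGFR2, the B-cell adaptor gene BLNK, the perforin gene PRF1, WNT8B, SFRP5 and DUSP13 were listed at 0.

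The interferon-induced IFIT genes lie side by side from 89302046 to 89420997, and 4 of the 5 were transcribed. IFIT5 was at 84.6, IFIT3 at 80.4, IFIT2 at 28.6 and IFIT1 at 20.5, while IFIT1B was listed at 0. On one side of them lie the acid lipase genes, from 88664442 to 89251775. LIPA, which breaks down cholesterol esters in lysosomes of many cell types, was at 61.0, but LIPF, the gastric lipase, LIPK and LIPN were listed at 0. Neighbours of 1 family thus differed from listed at 0 to well over 15 within less than a megabase.

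No gene of the list of tissue enzymes was transcribed. The list also holds genes that do not encode enzymes, among them surfactant genes, ABCC2 and RGR, which is also one of the markers above. Of its 19 members 11 were listed at 0, and the highest were ABCC2, an export pump of the liver, at 8.06 and OIT3 at 5.76. The 4 pancreatic lipase genes did not exceed 0.13, and the 3 surfactant genes SFTPA1, SFTPA2 and SFTPD of the lung did not exceed 0.173. The smallest value above 0 in the whole list was 0.0433, so these lie at or next to its lower end. Of 17 neuronal genes, 1 was transcribed and 9 were listed at 0, and of 6 developmental transcription factors 1 was transcribed and 4 were at 0. The exceptions were ATRNL1, an attractin-like membrane protein, at 41.2 and HHEX, a homeobox factor, at 22.1. PAX2 of kidney and eye was at 0.477, and LBX1, NKX2-3, VAX1 and VENTX were listed at 0.

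Among the longest members, levels ranged over the whole scale. ATRNL1 is the longest, at 855635 bp (plus strand, 115093365 to 115948999, 29 exons), and the next transcribed ones were ZMIZ1, CCSER2 at 130.4 over 189929 bp, MYOF, and LCOR, a nuclear receptor corepressor, at 157 over 163659 bp. The longest members listed at 0 were the lncRNA genes ENSG00000228566, at 820388 bp, LINC00865, at 371849 bp, and LINC00845, at 157073 bp, and the coding genes RNLS, at 299217 bp, and C10orf90, at 245697 bp.

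Noncoding members followed another pattern. Of the 65 lncRNA genes, 9 were transcribed, or 13.8%, against 6.53% in the other autosomes, and their median was 24.1 against 34.7, so their level was not the higher one. Of these 9, WAPL-DT was at 162 and OLMALINC at 96.1, and the other 7 were between 16.2 and 26.0. WAPL-DT is named as a transcript divergent from the cohesin-release gene WAPL. The methods state stranded counts for profiles around the TSS but default settings for this density, so reads of a gene and of a partner that starts beside it on the other strand may not have been told apart.

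The promoters of transcribed members resembled those of transcribed genes elsewhere in their base content. In the 300 bases around the start, the median GC content was 67.3% in the 103 transcribed members and 65.3% in the 2724 transcribed genes of the other autosomes, and 93 members, or 90.3%, had at least 10 CpG dinucleotides, against 90.4%. In members listed at 0, 22 of 77 reached that number, or 28.6%, against 26.0% in the other autosomes. Searched on both strands, with matches of different motifs free to overlap, GGGCGG was found in 68.0% of the transcribed members and 71.8% of their counterparts, CCGGAA in 29.1% and 31.9%, and CCAAT in 35.9% and 37.2%. TATAAA was found in 1 transcribed member, IFIT3, named after its value was seen, or 0.971%, against 6.31%. Over all genes of the other autosomes with a value, the shares were 42.7% for GGGCGG, 15.6% for CCGGAA, 37.4% for CCAAT and 13.5% for TATAAA.

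Genes with near-identical copies are uncertain, because BrU-seq reads that aligned to several places were kept at their primary alignment only. This touches RPS24, PGAM1 and VDAC2, which have processed copies elsewhere in the genome, and the paired genes NUTM2A and NUTM2E, at 17.3 and 121, and SFTPA1 and SFTPA2. Library depth is not in the table, but all densities above 0 are whole multiples of the smallest, 0.0433. If that step is 1 read, which the sources used here do not state, the lowest density above 15 stands for 347 reads and a listing at 0 allows up to 0.13, the density of 3 reads. Exact 95% Poisson intervals, which cover counting error only, would then reach down to 14.03 for CHST15 and up to 16.2 for ABLIM1, so these neighbours of the level overlap.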

How the data were processed

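ChIP-seq of H2BK120Ub covered 9 libraries, assigned to groups from their titles, and no value of a library was analysed here. The authors took genes from UCSC knownCanonical, kept those spaced by 2 kb and at least 3 kb long, and updated them to GRCh38.p14. In the deposited list 2 members were under 3 kb and 6 lay within 2 kb of another listed gene. The BrU-seq values are a score, deposited with the gene list. The authors aligned BrU-seq reads they had published before with STAR and summed them per gene with HOMER (4.8.2 in the submitters' processing notes). Their scale is not given in the sources used here. All 5579 values above 0 are whole multiples of the smallest, 0.0433 (to within 0.01 of a step), as whole reads over a fixed length would be. The number of other numeric columns, left unused, was 0.

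Values within 1e-06 of 0 were taken as 0. Symbols and classes came from GENCODE 44, which held all 236 members on the listed chromosome and strand. Start and end were those of an annotated transcript for 216. Promoters were read at the listed TSS. For shares, other genes were weighted to the members' lengths over 7 classes. For medians, the transcribed genes were weighted likewise to the lengths of the transcribed members. The weighting was tested on simulated data. Medians and shares were described without tests. The members and lists were chosen with earlier results of these data known. Named genes were the 20 highest, the 5 longest at 15 or above and at 0, the 3 next to 15 on each side, the 3 on each side of the border, and list members, of which a few are not reported here. Python 3.11.15, numpy 2.4.6, pandas 2.3.3, scipy 1.17.1 and matplotlib 3.10.9 were used.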

Additional observations from a re-analysis of the deposited data

How the results depend on the processing

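The 5 results were recomputed under 11 planned settings and 8 added after the data were seen, which left out each 10 Mb window of distal 10q in turn. Not every planned setting applied to every result, and 82 values were obtained, 42 planned and 40 added. The differences in share and the log2 ratios stayed above 0 in all 68 values obtained for them, and 75 of the 82 values moved by less than the spread, which was 1 SD over the 21 other autosomes or, for the plain share, its exact 95% binomial interval of 37.2% to 50.2% (counting genes only). With a level above 0 in place of 15, the share of members was 67.37%, and the log2 ratios were 1.093 to the other autosomes and 1.221 to proximal chromosome 10. With a level of 30 the share was 36.02%. With protein-coding genes only it was 55.95%, and the difference from proximal chromosome 10 fell to 11.9 points from 17.5. With the mean of log2 densities the log2 ratio to proximal chromosome 10 was 0.6068. The cause of these moves was not tested, beyond the lower or higher level itself. Leaving out 1 window gave log2 ratios to the other autosomes from 0.54 to 0.67 and shares from 40.2% to 45.7%. The other planned ratios to the other autosomes were not below 0.45. No replicate could be left out, and no paired analysis was possible because the table has no value of a single library. If the step of 0.0433 in the densities is 1 read, counting error does not settle on which side of 15 the members next to it lie.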

Other observations

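Another 46 protein-coding members belonged to no list, and 30 of them were transcribed, with a median of 52.4. Of all 168 coding members 94 were transcribed, or 56.0%, with a background of 45.7% over all listed coding genes. The 122 members in the lists, with 64 transcribed, had the lower median, 21.3. The highest were PPP1R3C, which targets a phosphatase to glycogen, at 306, PRXL2A at 206, FHIP2A at 193, the tumour suppressor candidate LZTS2 at 186 and DNAJB12, a chaperone partner at the endoplasmic reticulum, at 176. At the other end, 7 of the 46 were listed at 0. EIF5AL1, a close copy of the translation factor gene EIF5A, was at 2.43.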
